A study of Mus musculus with 2 samples.

Results

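Shared bidirectional promoters of the E15.5 mouse femoral growth plate are stretches of open chromatin, called at both ends of the femur, that lie at or near start sites of protein-coding genes transcribed in opposite directions. They were chosen by merging overlapping ATAC-seq peaks of the proximal and the distal list and keeping merged regions that held a peak of each end and lay within 1 kb of start sites of at least 2 protein-coding genes, at least 1 on each strand (GENCODE vM21, mm10). This rule gave 1178 regions, which were 4.98% of the 23635 regions called in both ends and 10.6% of the 11106 of these with any protein-coding start site. Within that distance lay start sites of 2329 genes, or 11.2% of the 20807 protein-coding genes on the autosomes. A pair of genes was found at 1132 of the regions, 3 genes at 44 and 4 genes at 2, and 75 of the genes lay at more than 1 region.

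The study profiled FVBNJ embryos at E15.5, with no treatment or mutation in the labels and the proximal and distal cartilaginous ends of the femur dissected away from the bony shaft and pooled within a litter of 8 animals on average. ATAC-seq, in which a transposase cuts accessible DNA, was run on 50000 dissociated cells per library. Each end had 2 biological replicates, and its list holds the peaks reproducible between them, 28257 in the proximal and 27958 in the distal list. Neither list separates the zones of the growth plate or the overlying perichondrium, and with 1 list per end no replicate error can be given, so intervals below cover counting error only and no differences were tested. The labels give the cells as chondrocytes. A peak of both ends lay within 1 kb of the gene 5′ end for 9 of 14 chondrocyte markers, Matn1 and Sox5 having none. The counts were 0 of 7 osteoblast, 0 of 8 skeletal muscle, and 1 of 8 blood, endothelial and epithelial markers each. By the same measure 50.9% of all 20807 protein-coding genes had such a peak, so the chondrocyte count alone does not set these markers apart.

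Many mammalian genes are arranged head to head, with start sites close together on opposite strands, and the DNA between them acts as a promoter for both. Such promoters are mostly rich in CpG dinucleotides, lack TATA boxes, and are known for genes that nearly every cell uses, among them genes for DNA repair, mitochondria and chaperones. ETS factors such as GABPA bind a GGAA core, NRF1 and NFY bind promoters of housekeeping genes, and SP1 binds GC boxes.

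The pairs below were taken from a list of textbook head-to-head genes, and show what lies between the start sites of genes for DNA repair (Brca1, Mre11a, Fen1), mitochondrial chaperones (Hspd1, Hspe1), mitochondrial translation (Mrps12, Sars2), respiration (Cox4i1) and basement membrane collagen (Col4a1 to Col4a4). Each line gives the minus-strand gene first, then the plus-strand gene, with the plus strand of the mm10 reference (read from the RefSeq sequence of GRCm38.p6) from 25 bp inside the first gene to 25 bp inside the second. Where the closest starts overlap, as at Col4a1/Col4a2, the stretch runs 25 bp past each of them. Capitals mark letters searched on both strands, namely CCGGAAG (GABPA), GCATGCGC (NRF1), AAGATGGC (YY1), AGCCAAT (NFY), GGGCGGGG (SP1), TGACGTCA (CREB), TCTCGCGA (BANP) and ACTACAA (ZNF143).
Brca1/Nbr1, chr11:101551930-101552174: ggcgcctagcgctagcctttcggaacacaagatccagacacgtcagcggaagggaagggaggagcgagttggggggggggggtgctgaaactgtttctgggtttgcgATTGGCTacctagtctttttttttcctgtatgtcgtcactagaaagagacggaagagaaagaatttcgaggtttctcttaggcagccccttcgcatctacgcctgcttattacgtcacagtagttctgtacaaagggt
Ankrd49/Mre11a, chr9:14784525-14784679: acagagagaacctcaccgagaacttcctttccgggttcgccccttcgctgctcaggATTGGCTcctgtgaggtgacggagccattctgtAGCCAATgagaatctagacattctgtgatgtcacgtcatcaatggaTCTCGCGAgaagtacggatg
Fen1/Tmem258, chr19:10204144-10204243: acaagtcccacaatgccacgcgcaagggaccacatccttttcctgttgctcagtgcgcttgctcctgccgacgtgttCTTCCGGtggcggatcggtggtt
Hspd1/Hspe1, chr1:55088218-55088339: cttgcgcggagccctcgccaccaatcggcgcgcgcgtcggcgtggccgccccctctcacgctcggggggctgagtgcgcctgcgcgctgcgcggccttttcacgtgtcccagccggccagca
Mrps12/Sars2, chr7:28741795-28742017: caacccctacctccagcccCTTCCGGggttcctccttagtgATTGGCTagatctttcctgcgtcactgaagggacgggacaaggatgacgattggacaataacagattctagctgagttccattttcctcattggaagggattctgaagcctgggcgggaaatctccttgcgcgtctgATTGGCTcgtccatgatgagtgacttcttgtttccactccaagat
Emc8/Cox4i1, chr8:120668096-120668247: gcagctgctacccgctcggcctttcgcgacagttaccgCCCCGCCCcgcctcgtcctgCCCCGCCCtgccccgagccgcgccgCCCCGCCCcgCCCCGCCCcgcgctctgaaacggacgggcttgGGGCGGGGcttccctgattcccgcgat
Col4a4/Col4a3, chr1:82586824-82586946: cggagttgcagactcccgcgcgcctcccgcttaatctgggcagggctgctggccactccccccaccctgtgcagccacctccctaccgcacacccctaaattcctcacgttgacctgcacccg
Col4a1/Col4a2, chr8:11312780-11312851: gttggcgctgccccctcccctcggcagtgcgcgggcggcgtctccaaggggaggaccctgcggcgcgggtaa

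The plus-strand reference is C57BL/6J and not the FVBNJ strain profiled, so these letters are the reference's. NFY letters stood between the starts of Ankrd49/Mre11a, Brca1/Nbr1 and Mrps12/Sars2, on both strands in the first of these. GABPA letters stood at Fen1/Tmem258 and Mrps12/Sars2. Emc8/Cox4i1 held SP1 letters at 5 places, and the Hspd1/Hspe1 and both collagen stretches held none of the 8 strings of letters. Other forms of these motifs were not searched.

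Of the 24 textbook pairs examined, 20 lay at a shared bidirectional promoter. This share is not above that of head-to-head pairs at large. By a related measure, both genes had peaks of both ends in 676 of all 734 annotated head-to-head pairs (92.1%). At Brca1/Nbr1, where Brca1 encodes a homologous recombination factor, the proximal peak was 1399 bp wide and the distal peak 1334 bp, with the starts 194 bp apart. At Hspd1/Hspe1, which encode the mitochondrial chaperonin and its cochaperonin, the proximal peak measured 1405 bp and the distal 1255 bp around starts 71 bp apart. In both of these the proximal peak was the wider by under 200 bp.

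Mcm4/Prkdc, for a subunit of the replicative helicase and a kinase of end joining, had starts 466 bp apart and peaks of 1329 bp and 1322 bp in the proximal and distal list. Ankrd49/Mre11a matched most closely of the textbook pairs, its peaks of 1091 bp and 1087 bp covering 99.5% of their joint bases in both ends. Fen1/Tmem258, Fen1 being the flap endonuclease of lagging-strand synthesis, had a proximal peak of 940 bp and a distal peak of 1223 bp. The distal peak was the wider at this pair.

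The other 4 textbook pairs were not members. Surf1/Surf2, with starts 22 bp apart, and Tk1/Afmid, with starts 57 bp apart, had no region of either end within 1 kb. Ung/Alkbh2 starts were 2168 bp apart, and Alkbh2 had no region of either end within 1 kb. Nup107 and Slc35e3 are on the same strand in this annotation, with starts 14992 bp apart.

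Wrap53/Trp53 was a member in an unusual form. The starts of the tumour suppressor gene Trp53 and its antisense neighbour Wrap53 are 104 bp apart at chr11:69580255-69580359, and neither list had a peak over them. A shared region of 669 bp (proximal peak 667 bp, distal peak 572 bp) ended before them at 69579598, and another of 526 bp (proximal 526 bp, distal 299 bp) began after them at 69581143. Among the 33 gene pairs with more than 1 region, only this pair had both of its closest starts in the stretch between the regions.

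The spacing of the starts was narrow. The closest opposite starts were head to head, with the plus-strand start to the right of the minus-strand start, in 967 regions (82.1%), and overlapping in 211. Among head-to-head members the starts were a median of 106 bp apart (quartiles 56 and 209 bp, longest 2053 bp), with 48.4% no more than 100 bp apart and 73.7% no more than 200 bp. Both closest starts lay inside the merged region in 1038 members (88.1%), inside the proximal peak in 1030 and inside the distal peak in 1022. A single peak of each end made up 1161 members (98.6%).

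Most starts thus lay inside the accessible DNA, and few at the margin allowed by the rule. The start that decided membership lay inside the region for 1051 members (89.2%) and over 500 bp away for 74. Just inside the 1 kb limit were Lig4/Abhd13 at 996 bp, Aldoa/Fam57b at 995 bp and Gpbp1l1/Tmem69 at 990 bp. Just outside were Mttp/Trmt10a at 1005 bp, Gemin2/Sec23a at 1014 bp and Cd59b/Gm10799 at 1015 bp.

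Members were wider than shared promoters of a single protein-coding gene. Their median width was 1113.5 bp (95% interval of the median 1091 to 1133 bp, n = 1178, quartiles 931 and 1304 bp), against 984 bp (978 to 992 bp, n = 9771, upper quartile 1202 bp). The difference of 129.5 bp was found in each list alone, at 1058 against 928 bp for proximal peaks and 1045 against 913 bp for distal peaks. The classes overlapped widely, and 68.3% of members were wider than the median single-gene promoter.

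**Figure D1:**
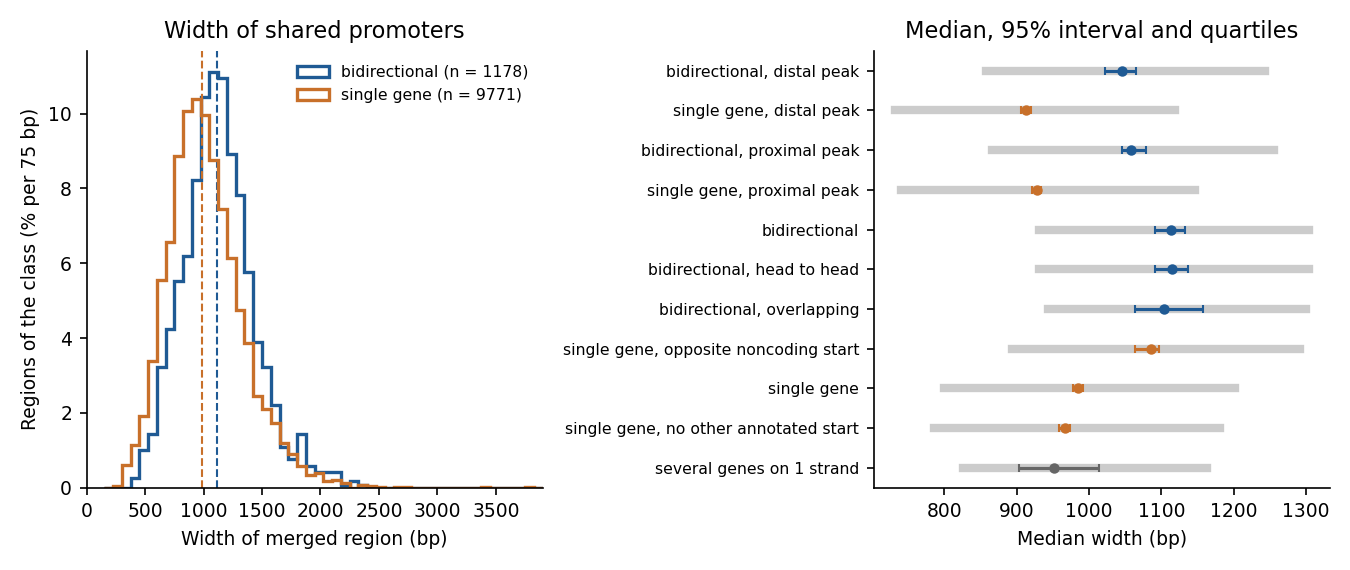
Left, width of merged regions in bp on the x axis against the share of regions of each class per 75 bp, with dashed lines at the medians (1113.5 and 984 bp). Right, median width in bp of each class (points, with 95% intervals as bars and quartiles in grey), in merged regions unless a peak list is named. Bidirectional classes and single-gene promoters with an opposite noncoding start sit to the right of the other single-gene promoters.

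A second start on the other strand went with greater width even where that start was noncoding. Single-gene promoters with an opposite-strand noncoding start within 1 kb had a median of 1085 bp (1064 to 1097 bp, n = 1512), and those with no other annotated start 966 bp (958 to 974 bp, n = 8084). Promoters of several genes on 1 strand had a median of 951 bp (903 to 1013 bp, n = 157). Within members, head-to-head and overlapping pairs had medians of 1115 and 1104 bp, and the 46 regions with 3 or 4 genes 1154 bp. Regions with no protein-coding start had a median of 678 bp.

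Distance is counted from the edge of a region, so a wider region can reach more starts, and the rule is thereby linked to width. With distance counted from the region centre the difference was 136 bp. Width was also compared at a like span from the first to the last annotated start. In an alternative chosen after seeing the data, in which medians were weighted to the spans of the members, the difference was 73.7 bp (1116 against 1042 bp). At spans up to 50 bp members had the lower median, 759 bp for 6 members against 932 bp, and likewise over 50 and up to 100 bp, 903.5 bp for 30 members against 971.5 bp. At spans over 100 and up to 200 bp the medians were 1013.5 bp for 120 members and 1010 bp for 967 single-gene promoters. At spans over 400 and up to 800 bp they were 1144 and 1066 bp, and at spans over 800 bp 1172 and 1048 bp.

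Median width was greater where the starts were farther apart, up to a spacing of 500 bp. Median width was 1055 bp at spacings up to 50 bp (n = 215), 1089 bp up to 100 bp (n = 253), 1129 bp up to 200 bp (n = 245) and 1197 bp up to 500 bp (n = 158), each class starting where the one before it ended. Beyond 500 bp it was 1030 bp (n = 96), and there only 33.3% of the regions held both starts. Across all 967 head-to-head members Spearman's rho between spacing and width was 0.10, given as a description of regions from the same libraries.

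**Figure D2:**
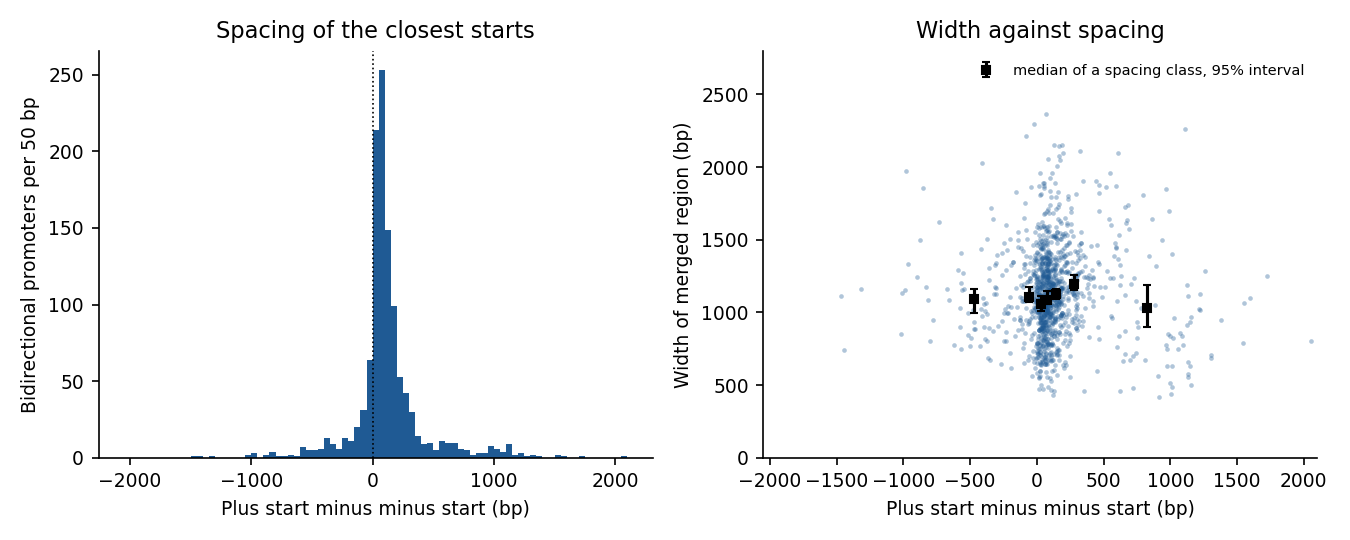
Left, number of bidirectional promoters per 50 bp of spacing, the plus-strand start minus the minus-strand start in bp (above 0, head to head). Right, width of each merged region in bp against that spacing, with squares at the median spacing and median width of 7 spacing classes and 95% intervals of the median width. Most points lie between 0 and 200 bp of spacing, with medians from 1055 to 1197 bp up to 500 bp.

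Taken over all regions, accessible DNA ran about equally far past plus-strand and minus-strand starts. In the 866 head-to-head members that held both starts, the region ran a median of 491.5 bp past the plus start and 476 bp past the minus start, with a median of 96 bp between the starts. Plus and minus are strands of the genome, so these medians do not show how even each region was. Within regions the longer downstream side had a median of 595 bp and the shorter 382.5 bp. Single-gene promoters that held their start ran 511 bp downstream and 474 bp upstream of it. The midpoint from which the plot of peak coverage measures lies upstream of both starts, and the single start has no such offset.

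**Figure D3:**
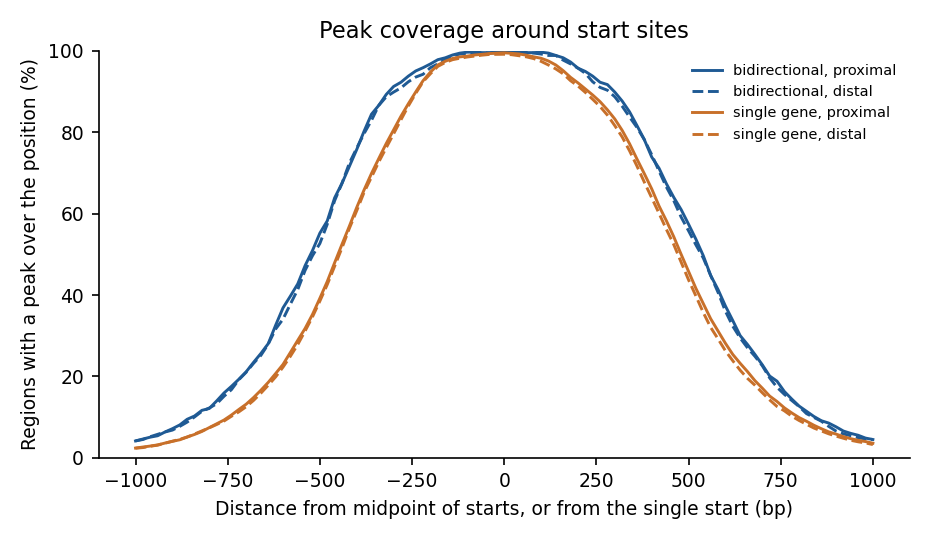
Share of regions with a peak over each position (y axis, %) against distance in bp from the midpoint of both starts for 866 head-to-head bidirectional promoters, or from the start for 9088 single-gene promoters, with transcription to the right. Solid lines are proximal and dashed lines distal peaks. At 600 bp to the left the bidirectional share was 36.8% and 34.1%, and the single-gene share 22.9% and 22.3%. The left is downstream of the minus-strand start in bidirectional promoters but upstream of the start in single-gene promoters. At 600 bp to the right, downstream in both classes, the shares were 37.3% and 36.0% against 28.1% and 26.3%.

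Members looked much alike in both ends. The bases called in both ends made up a median of 92.3% of a member's called bases, against 90.4% for single-gene promoters and 86.8% for shared regions with no protein-coding start. Proximal bases outnumbered distal bases in 630 members (53.5%, 50.6 to 56.3%), distal in 538, and the counts were equal in 10. A difference of over 2-fold was found in 7 members (0.594%), against 0.768% of single-gene promoters.

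The largest differences between the ends were seen at Mllt11/Cdc42se1, with 921 bp proximally and 392 bp distally, and at Zbtb25/Zbtb1, a pair of zinc finger genes, with 1612 and 750 bp. The opposite direction was seen at Amdhd1/Ccdc38, with 338 and 761 bp, and at Gnptg/Tsr3, with 387 and 850 bp. Gnptg encodes a subunit of the enzyme that tags lysosomal hydrolases with mannose 6-phosphate. These values rest on 1 list per end and have no replicate error.

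Presence in both lists was part of the rule and is given as a description. Of all merged regions with this arrangement of starts, 1178 of 1229 (95.9%) were called in both ends, 19 in the proximal list only and 32 in the distal list only. The share was 88.6% for single-gene promoters and 73.0% for all 32388 merged regions.

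The same arrangement can be counted from the annotation alone, without the peaks. Of 1443 genes whose 5′ end lay head to head with an opposite protein-coding 5′ end within 1 kb, 1328 (92.0%, Wilson 95% interval 90.5 to 93.3%) had a peak of both ends within 1 kb. For genes with no opposite protein-coding start the share was 46.0%, or 49.0% without olfactory receptor genes, and for all genes 50.9%. It was 85.2% for genes with an overlapping opposite gene and 74.4% where the opposite start was noncoding. In the head-to-head class it was 92.1% at spacings up to 100 bp, 93.2% up to 200 bp, 94.2% up to 500 bp and 83.2% (75.9 to 88.6%) over 500 bp, each class starting where the one before it ended. Both genes of a pair enter these counts and a peak can serve both, so the intervals treat linked genes as separate. A gene with no opposite start has no partner whose peak could count for it. With a peak required over the 5′ end itself, the share was 88.4% for head-to-head genes and 41.8% for genes with no opposite protein-coding start.

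Both genes had peaks of both ends in 676 of 734 annotated head-to-head pairs (92.1%, 89.9 to 93.8%), and neither gene had any peak in 43. Among pairs up to 300 bp apart, 44 lacked a peak of both ends at one gene or both, with no peak in either list at 31, a proximal peak only at 6 and a distal peak only at 7. The total of annotated pairs at this spacing is not given here, so these counts cannot be read as shares or set against the 734 pairs. Some are genes of the germline or brain, such as Smc1b/Ribc2, for a meiotic cohesin subunit, and Nr2e1/Ostm1, Nr2e1 being a neural stem cell factor. Others carry genes that every cell uses, such as Rnf151/Rps2, Zwilch/Rpl4 and Eme2/Mrps34 with no peak, and Polr3a/Rps24 with a proximal peak only. These pairs were singled out after their values were seen.

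The DNA of members was rich in CpG. In 300 bp around the region centre, the GC content had a median of 65% (quartiles 59.0 and 69.7%), slightly below the 66.3% of single-gene promoters, while the observed over expected CpG ratio was 0.86 against 0.82. Both a GC content over 50% and a CpG ratio over 0.6 were found in 88.9% of members, 79.2% of single-gene promoters, 87.0% of those with an opposite noncoding start and 7.94% of shared regions with no protein-coding start.

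GABPA letters showed the largest difference in share from single-gene promoters, in percentage points, among the 13 motifs searched. As a ratio of shares, BANP letters (2.74) and ZNF143 letters (2.20) stood above GABPA letters (1.90). CCGGAAG was present within the 300 bp in 321 members (27.2%, Wilson 95% interval 24.8 to 29.9%), in 14.3% (13.6 to 15.0%) of single-gene promoters and in 7.09% of all merged regions. With single-gene promoters weighted to the GC content of members the share was 14.9%. The gene for GABPA itself lay at a member, Atp5j/Gabpa, with peaks of 1467 bp proximally and 1442 bp distally.

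BANP letters, TCTCGCGA, were present in 3.74% of members and 1.36% of single-gene promoters, and ZNF143 letters, ACTACAA, in 5.26% and 2.39%. NFY letters were in 12.1% and 8.33%, YY1 letters in 6.37% and 4.01%, and NRF1 letters in 5.26% and 3.65%. SP1 letters were frequent in both classes, at 30.6% and 28.1%. Myc E-box letters (CACGTG), at 9.59% and 8.13%, and CREB letters, at 3.74% and 2.52%, differed by under 2 percentage points.

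AP-1 letters, TGANTCA, went the other way. They were present in 3.48% of members (2.58 to 4.69%) and 6.41% of single-gene promoters (5.94 to 6.91%), against 29.8% of all merged regions. The share was 3.64% at single-gene promoters with an opposite noncoding start and 3.82% at promoters of several genes on 1 strand. Letters of SOX factors (CCATTGTT), a family that includes the chondrocyte factor Sox9, were present in 1 member and in 0.317% of single-gene promoters. They were rare everywhere, at 0.506% of all merged regions. RUNX letters (TGTGGTT) were in 2.72% of members and 2.83% of single-gene promoters, against 6.67% of all merged regions. A match of letters is not a bound site.

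**Figure D4:**
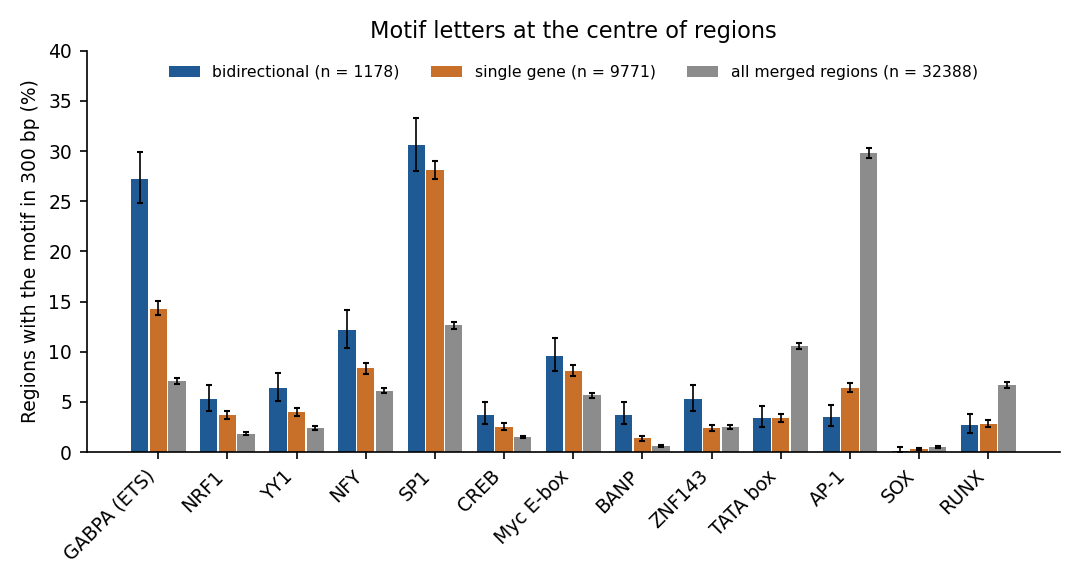
Share of regions (y axis, %) with each motif's letters on either strand in 300 bp around the centre, for bidirectional promoters, single-gene promoters and all merged regions, with Wilson 95% intervals. GABPA letters stand at 27.2, 14.3 and 7.09%, and AP-1 letters at 3.48, 6.41 and 29.8%.

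None of the 8 strings of letters capitalised in the sequences was present in 399 members (33.9%), against 49.5% of single-gene promoters. Just 1 was present in 41.9% of members, and 2 in 20.7% against 11.2%. Among the 748 pairs with starts 20 to 300 bp apart, the stretch between the starts held SP1 letters in 24.3%, GABPA letters in 16.7%, NFY letters in 12.6% and YY1 letters in 0.535%. YY1 letters were compared in bins of 50 bp. In the 871 members with starts up to 500 bp apart they were most frequent 50 to 100 bp from the midpoint. The share there was 2.53% to the right and 1.95% to the left, sides set by the reference strand alone. In single-gene promoters YY1 letters were most frequent 0 to 50 bp downstream of the start.

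TATA letters were rare. TATAAA began 40 to 20 bp upstream of 6 of the 2356 closest starts of members (0.255%, 0.117 to 0.555%) and of 90 of 9771 single-gene starts (0.921%, 0.750 to 1.13%). The 6 belonged to Duoxa2, Ap4m1, Foxa3, Tcta, Srsf2 and Hist1h2bg, and in no region were both starts of this kind.

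Several lists of basic cell machinery had a larger share of genes at members than all genes had, and the skeletal lists a smaller one. Over all genes at a shared region, 20.4% (2329 of 11437) were at a bidirectional promoter, and each list below is read against that value. Of the 24 gene lists, 15 had a higher share, and for 7 of these the Wilson 95% interval held 20.4%. Those 7 were mitochondrial protein import, DNA replication, splicing factors, aminoacyl-tRNA synthetases, proteasome, cell division and Mediator.

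For the mitochondrion, 31 of 72 genes of the mitochondrial ribosome (43.1%), 36 of 89 of the respiratory chain and ATP synthase (40.4%) and 8 of 23 of protein import (34.8%) were at members. Among the widest were Mrpl40/Hira, where Hira encodes a histone chaperone, with a proximal peak of 2029 bp and a distal peak of 1944 bp, and Uqcrh/Lrrc41 with 1307 and 2100 bp. Median spacing of the starts was 59 bp for members with a mitochondrial ribosome gene and 83 bp for those with a respiratory chain gene. Genes of the cytosolic ribosome, at 13 of 73 (17.8%), were near the value for all genes.

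For the genome and its expression, 40 of 102 DNA repair genes (39.2%), 16 of 52 DNA replication genes (30.8%), 26 of 63 genes of tRNA and rRNA processing (41.3%), 11 of 27 RNA polymerase subunits (40.7%) and 17 of 58 splicing factors (29.3%) were at members. Chaperones stood at 25 of 66 (37.9%) and cilium and centrosome genes at 18 of 56 (32.1%). Aminoacyl-tRNA synthetases (27.0%), proteasome subunits (23.8%), cell division genes (22.4%) and Mediator subunits (22.2%) lay nearer to 20.4%.

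Clustered replication-dependent histone genes had the highest share under the main rule, 31 of 62 (50%). With distance counted from the region centre they stood at 24 of 59 (40.7%), below the mitochondrial ribosome at 41.7%. Neighbouring histone genes share regions, so they are not separate observations. The replication-dependent genes supply histones in S phase, and many lie in H2A and H2B pairs. Hist1h2ac/Hist1h2bc had starts 251 bp apart and peaks of 1357 bp proximally and 1407 bp distally, and Hist1h2ah/Hist1h2bk had starts 302 bp apart and peaks of 1220 and 1209 bp. The median spacing over the 15 histone regions was 270 bp. These include the H2B and H3 pairs Hist1h2bh/Hist1h3f (660 bp) and Hist1h3c/Hist1h2bb (1132 bp), each with 2 regions. Copies of the histone genes are near identical, and reads could be split between them.

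Skeletal genes were few. Of 17 cartilage matrix genes at a shared region none was at a member, and of 44 skeletal regulators 3 were (6.82%). The region at Sox6, a SOX factor of chondrocyte differentiation, lay outside both starts, with peaks of 1046 bp proximally and 1072 bp distally and Sox6 and 1110004F10Rik starting 601 bp apart. The region at Thpo/Chrd, where Chrd encodes the BMP antagonist chordin, had 1132 and 998 bp and starts overlapping by 1008 bp. Foxa3/Sympk had 1370 and 1328 bp with starts 839 bp apart. With a 500 bp limit 1 of 43 skeletal regulators remained at a member.

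Collagens stood at 4 of 24 (16.7%), and all 4 encode chains of type IV collagen of basement membranes. Col4a1/Col4a2 had a proximal peak of 964 bp and a distal peak of 1185 bp, with 70.7% of called bases in both. Col4a4/Col4a3 had 939 and 855 bp. Of secreted signalling genes, Fgf20 and Gdf9 were at members (2 of 25), and Zfp-named zinc finger genes stood at 29 of 320 (9.06%). Hox genes (0 of 5), olfactory receptors (0 of 2) and keratins (0 of 2) had few genes at shared regions.

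**Figure D5:**
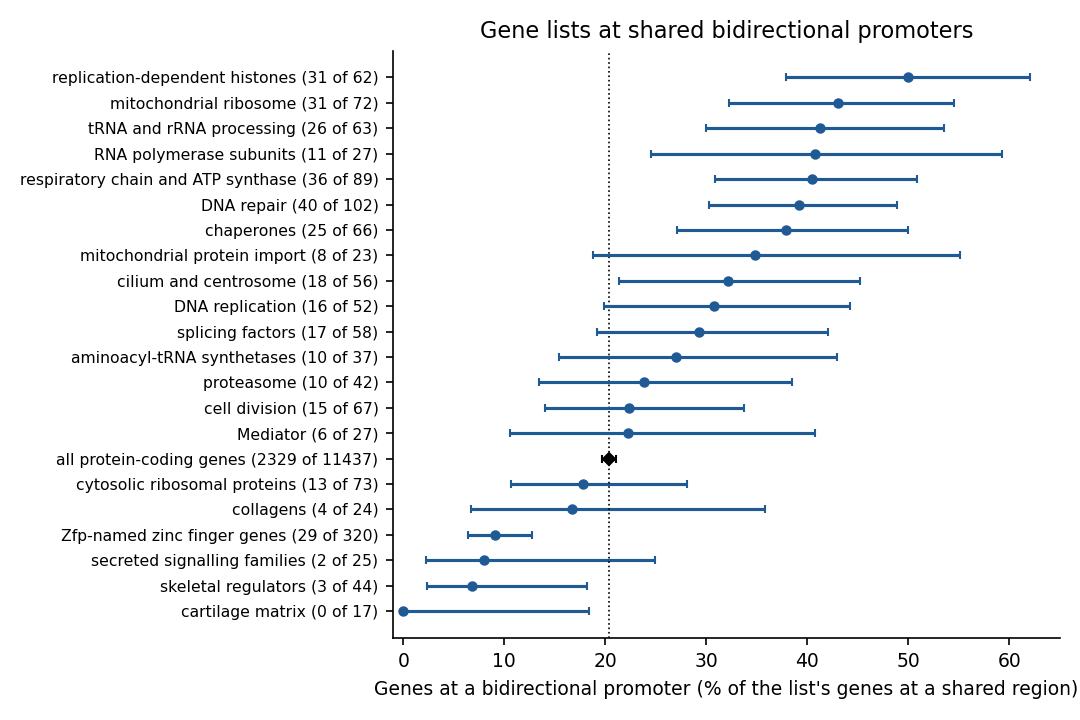
Share of each list's genes at a shared region that lie at a bidirectional promoter (x axis, %), with Wilson 95% intervals and counts in the labels, for lists with at least 17 genes at shared regions. The diamond and dotted line mark all protein-coding genes (20.4%), with the mitochondrial ribosome at 43.1%, cytosolic ribosomal proteins at 17.8% and cartilage matrix at 0%.

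The lists also differed in the annotation alone. An opposite protein-coding 5′ end within 1 kb was annotated for 42.9% of RNA polymerase subunit genes, 41.6% of mitochondrial ribosome genes, 35.8% of DNA repair genes, 40.3% of histone genes, 20% of cytosolic ribosomal protein genes, 8.09% of Zfp-named genes and none of the cartilage matrix genes, whatever their peaks, against 11.2% of all genes.

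Of 310 members with any listed gene, 49 held at least 2 listed genes, and in 24 of these at least 2 genes were of 1 list. Of the 24, 15 were histone regions. The others were Mrpl46/Mrps11, Hars/Hars2 for a pair of histidyl-tRNA synthetases, Hspd1/Hspe1, Hspa1a/Hspa1l, the zinc finger pairs Zfp668/Zfp646, Zfp942/Zfp943 and Zfp944/Zfp758, and both collagen pairs. None of the regions with a DNA repair gene held a second gene of that list. This was not particular to DNA repair, and was also so for the DNA replication, proteasome and splicing factor lists, among others.

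At the extremes of width, Zfp91/Lpxn was the widest member, with peaks of 2355 bp proximally and 2240 bp distally and starts 67 bp apart. Mboat7/Tsen34 followed with 2244 and 2249 bp. The narrowest, at Nisch/Sema3g, had peaks of 397 and 420 bp and starts 914 bp apart, and Hnrnpd/4930524J08Rik had 416 and 397 bp. By chromosome, members made up 5.93% of shared promoters on chromosome 6 and 13.8% on chromosome 11.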

How the data were processed

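ATAC-seq was run by the authors on proximal and distal femoral growth plates of E15.5 FVBNJ embryos. Reads were aligned to mm10 with Bowtie2 (2.2.8) and duplicates removed, and peaks were called with MACS2 (2.1.1, both per the submitters' processing notes) and kept by the authors where reproducible between 2 biological replicates (IDR under 0.05). The deposited lists hold peak positions only, with no height, score or count, so read depth per peak is not known from them. Reads and single replicates were not analysed here. All 19 chromosomes of the lists were matched to chromosomes of GRCm38.p6, and no peak or gene ran past a chromosome end.

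Peaks overlapping by at least 1 bp were merged. Start sites were the 5′ ends of all transcripts of protein-coding genes in GENCODE vM21, within 1 kb of a region edge. The spacing is that of the closest opposite starts. GC, CpG and motif letters were taken in 300 bp around each region centre. Medians have distribution-free 95% binomial intervals and shares have Wilson 95% intervals; both cover counting error only, and regions are not replicates. Python 3.11.15, NumPy 2.4.6, SciPy 1.17.1 and pysam 0.24.0 were used, and the code was tested on simulated regions. Named pairs came from 24 textbook pairs, from the collagen, skeletal and cartilage lists, from the extremes of width and of difference between ends, from the region nearest the limit, and from the 3 widest regions of each other list. Some of these pairs are not reported here. The members and gene lists were chosen with earlier results of these data known.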

Additional observations from a re-analysis of the deposited data

How the results depend on the processing

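The number of members, 1178, was 1104 with a limit of 500 bp, 1291 with 2 kb, 1115 from the region centre and 1091 with gene 5′ ends only. The width difference of 129.5 bp lay between 112 and 136.5 bp under 9 other rules or measures of width. It was 139.5 bp over regions that cover the closest starts and 73.7 bp with medians weighted to the spans of the starts, both chosen after seeing the data. The accessible share of head-to-head genes, 92.0%, was 90.5% with a peak within 500 bp and 88.4% with a peak over the 5′ end. The difference in GABPA letters, 12.9 percentage points, was 9.09 in 200 bp and 19.5 in the whole region, windows that hold fewer and more bases. None of the values given here changed sign under these alternatives, although within spans of the starts up to 100 bp members had the lower median width. Of 24 values for 8 gene lists under other rules, 23 stayed within the interval of the reported share, the exception being skeletal regulators at 500 bp. No paired analysis was possible because the list used here for each end combines its replicates, and for the same reason no replicate was left out. Reads and peak heights were not analysed here, so a broad weak region and a broad strong one are not told apart.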
